A study of Mus musculus with 2 samples.

Results

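The genes described here are 10 genes of epithelial adhesion and of its mesenchymal counterpart: the classical cadherins Cdh1, Cdh2 and Cdh3, the adhesion glycoprotein Epcam, the claudins Cldn3, Cldn4, Cldn6 and Cldn7, the junctional adhesion molecule Jam2 and the intermediate filament gene Vim. They were given by name as adhesion genes, with earlier results of these data known, and all 10 were found among the 32286 features of both single-cell RNA sequencing (scRNA-seq) libraries. One library held mouse embryonic stem cells (ESCs) grown in serum/LIF medium on feeder cells (0 h), and the other held epiblast-like cells after 48 h of differentiation in activin A and bFGF on Matrigel (48h-EpiLCs). In each, wild-type (WT) cells with the ROSA mT/mG reporter, which transcribe tdTomato, had been mixed in equal numbers with Cnot8 knockout (KO) cells of a line derived from a blastocyst, for which single colonies had been picked. The genotype label reads wild type for both libraries, although the study's methods describe the mixture, so the line of a cell was taken from its transcripts. The strain was given as ICR for both. The product of Cnot8 is an enzyme that removes poly(A) from mRNAs as a subunit of Ccr4-Not.

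Cells were kept when 1000 or more genes were detected and mitochondrial transcripts made up no more than 10% of the unique molecular identifiers (UMIs), which left 11054 ESCs and 9400 48h-EpiLCs. A cell was WT-annotated with at least 1 tdTomato UMI and 0 UMIs of the 4 Y-linked genes Ddx3y, Eif2s3y, Kdm5d and Uty, and KO-annotated with 0 tdTomato UMIs and at least 2 Y-linked UMIs. In ESCs the WT-annotated class held 435 cells and the KO-annotated class 2978, and in 48h-EpiLCs they held 368 and 2977, whereas 7641 ESCs (69.1%) and 6055 48h-EpiLCs (64.4%) met neither rule. The classes held 6154790, 44110356, 6219834 and 59291903 UMIs in that order, with medians of 13151 to 17628 UMIs per cell. Cnot8 itself was at 43.1 and 72.1 CPM (UMIs per 1000000 UMIs of the class) in WT-annotated and KO-annotated ESCs, and its 48h-EpiLC levels were 49.7 and 62.6 CPM, but counts from the 3′ end do not test a small coding mutation. With 1 library per stage there were no replicates, so no test was run: intervals are exact 95% intervals of counting error only, stage cannot be told apart from library, and Cnot8 genotype cannot be told apart from other differences between the 2 lines. Y-linked transcripts, which the annotation rule uses, are among those differences, so each line comparison is also one of cells with and without them. The libraries shared 26 barcodes among the kept cells.

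Both stages carried their defining markers. Zfp42, a naive pluripotency gene, stood at 304 and 603 CPM in WT-annotated and KO-annotated ESCs, against 37.5 and 97.1 CPM after 48 h, while the formative gene Fgf5 went from 2.76 and 1.29 CPM to 53.4 and 35.9 CPM. The ESC library also held clusters of other cells, named from fixed marker lists: feeder fibroblast-like (410 cells), primitive endoderm-like (238) and 2-cell-like (69). Some of them met the line rules: fibroblast-like, endoderm-like and 2-cell-like cells made up 0.69%, 1.84% and 0.46% of the WT-annotated ESCs and 3.39%, 3.06% and 0.839% of the KO-annotated ESCs. The summed level of the 10 fibroblast markers was 14.3 CPM in WT-annotated ESCs and 42.8 CPM in KO-annotated ESCs, with 1 and 0 markers at 0. It was 14.1 and 16.6 CPM in 48h-EpiLCs, with 4 and 0 markers at 0. Without these clusters it was 9.93 and 13.1 CPM in the ESC classes. The 10 primitive endoderm markers summed to 69.5 and 75.9 CPM in the ESC classes, and to 46.6 and 40.3 CPM without the clusters. High doublet scores (the top 10% of each library) were carried by 6.90% and 14% of WT-annotated and KO-annotated ESCs and by 5.98% and 14.8% of 48h-EpiLCs. Several results that turned on these cells are given with and without them.

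Cadherins are calcium-dependent adhesion molecules that join neighbouring cells at adherens junctions and bind catenins inside the cell. Claudins and junctional adhesion molecules sit at tight junctions, where claudins form the sealing strands. Pluripotent cells of the mouse epiblast are held together by E-cadherin, the product of Cdh1, and N-cadherin (Cdh2) and vimentin (Vim) are known as features of mesenchymal cells. Repressors of the Snail and Zeb families are known to bind E-box sequences with the letters CACCTG in promoters of epithelial genes.

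The promoters shown here are those in which that E-box was found, because the E-box is the sequence through which these repressors are known to act on epithelial genes. The table of RefSeq promoters used here (GRCm38.p6) held 7 start sites for 6 of the 10 genes: Epcam, Cldn3, Cldn4, Cldn6, Cldn7 (2 starts) and Vim. In the 250 bases before the start, CACCTG or its reverse complement CAGGTG was found in 4 of these 7 windows, and in 17.2% of all 32851 promoter windows. AACCGGTT, a palindrome bound by grainyhead-like factors, was in 0 of the 7 and in 0.116% of all. Those matches are letters in a window, not measured binding. Capitals mark the E-box, and sequences read 5′ to 3′ on the strand of the gene. For Epcam (plus strand, chr17:87635729-87635978) and Cldn4 (minus strand, chr5:134946935-134947184) all 250 bases are shown. For Cldn6 (plus strand, chr17:23679260-23679289) and the second start of Cldn7 (plus strand, chr11:69965312-69965341 and chr11:69965352-69965381) 30 bases around each E-box are shown, because those windows overlap the annotated gene.
Epcam: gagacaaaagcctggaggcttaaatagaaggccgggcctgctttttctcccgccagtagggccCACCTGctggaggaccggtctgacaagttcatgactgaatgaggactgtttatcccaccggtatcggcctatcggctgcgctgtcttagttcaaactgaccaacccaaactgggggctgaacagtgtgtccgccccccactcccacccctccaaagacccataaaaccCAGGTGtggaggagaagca
Cldn4: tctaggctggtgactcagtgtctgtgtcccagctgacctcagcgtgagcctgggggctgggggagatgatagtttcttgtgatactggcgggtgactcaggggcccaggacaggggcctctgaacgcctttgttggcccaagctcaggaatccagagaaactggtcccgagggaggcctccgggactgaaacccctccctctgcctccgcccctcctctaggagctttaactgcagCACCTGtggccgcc
Cldn6: gggaaacgcacgCAGGTGgctatcgccgca
Cldn7, first E-box: tttcttcctcttCACCTGgacgaggagggg
Cldn7, second E-box: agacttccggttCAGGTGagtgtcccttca
Counted from the start site, with negative positions before it, the E-boxes begin at -187 and -19 in Epcam, -14 in Cldn4, -93 in Cldn6 and -97 and -57 in Cldn7. The windows of Cldn3, of the first Cldn7 start and of Vim did not hold these letters.

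From ESCs to 48h-EpiLCs, Cdh1, Cldn6 and Cldn7 were higher and Jam2 and Vim lower in both lines, and Cldn4 moved in opposite directions. A change was counted when it was at least 1.5-fold. In the WT-annotated cells 3 of the 8 genes with a mean of at least 5 CPM were at least 1.5-fold higher in 48h-EpiLCs (Cdh1, Cldn6, Cldn7), against 14.6% of all 9242 genes measured, and 3 were at least 1.5-fold lower (Cldn4, Jam2, Vim), against 12.4%. Of these, Cldn4 dropped under 1.5-fold, to -0.25 on the log2 scale, with the line taken from the cluster. In the KO-annotated cells 6 of 8 were higher (Cdh1, Epcam, Cldn3, Cldn4, Cldn6, Cldn7), against 9.51% of 9478 genes, and 2 were lower (Jam2, Vim), against 11.1%. The median log2 ratio of the genes measured was 0.544 and 0.640 in the WT-annotated and KO-annotated cells, and that of all genes was 0.029 and -0.022. Cdh2 and Cdh3 lay under 5 CPM and were not counted. Without the fibroblast-like, endoderm-like and 2-cell-like clusters 4 of 8 genes were higher in the KO-annotated cells, against 10.3% of all genes: Cdh1 then reached 1.49-fold and Cldn4 1.45-fold. In bulk sums such as these, fewer cells with a gene and fewer transcripts per cell cannot be told apart, so shares of cells are given beside the levels.

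**Figure D1:**
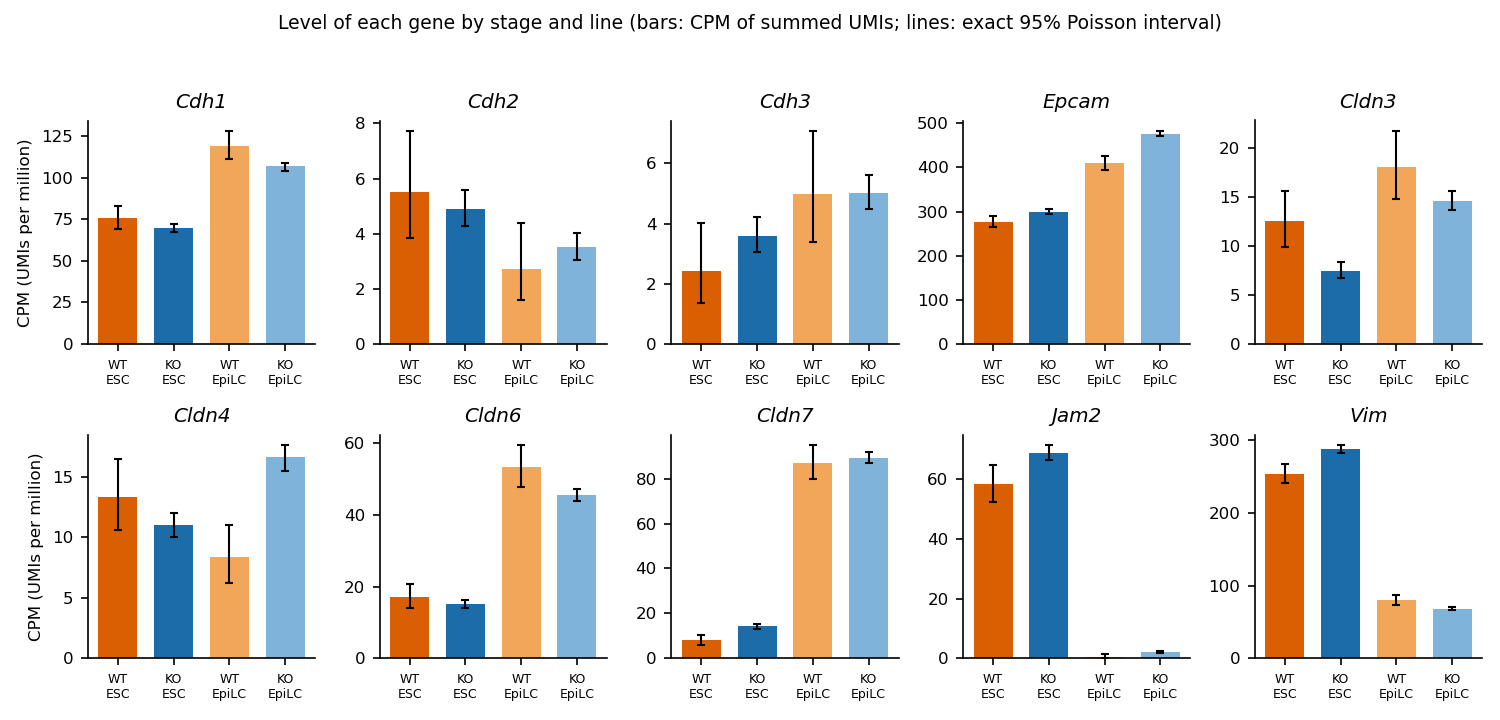
Level of each of the 10 genes in the 4 classes of cells, in CPM of summed UMIs on linear axes that start at 0, with exact 95% Poisson intervals. Cldn6, Cldn7, Epcam and Cdh1 are higher in both 48h-EpiLC classes than in both ESC classes, Jam2 and Vim are lower, and Cldn4 is lowest in WT-annotated and highest in KO-annotated 48h-EpiLCs.

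Cldn7, a claudin of epithelial sheets, changed most among the genes that rose. It was at 7.96 CPM (interval 5.89 to 10.5) in WT-annotated ESCs, 14.2 CPM (13.1 to 15.4) in KO-annotated ESCs, 87.1 CPM (80.0 to 94.8) in WT-annotated 48h-EpiLCs and 89.3 CPM (86.9 to 91.8) in KO-annotated 48h-EpiLCs. Both 48h-EpiLC classes lay far above both ESC classes, at 6.28-fold in the KO-annotated and 10.9-fold in the WT-annotated cells, with no background subtracted. On the log2 scale the rises were 3.45 (3.03 to 3.90) and 2.65 (2.53 to 2.77). The KO-annotated minus WT-annotated difference in that change was -0.80 (-1.24 to -0.36) on the log2 scale. The lines differed by 0.84 (0.42 to 1.29) in ESCs and by 0.04 (-0.09 to 0.17) in 48h-EpiLCs. After thinning, 4.61% and 6.29% of ESCs and 34.9% and 32.2% of 48h-EpiLCs held a Cldn7 UMI. The WT-annotated ESC share lay within the interval of the fibroblast-like cells (2.9%, 1.34% to 5.44%) and was read as background, and the WT-annotated ESC level of 7.96 CPM lay within that of the fibroblast-like cells (6.77 CPM, 4.72 to 9.42). The WT-annotated fold, the line difference in ESCs and the difference in stage change are therefore taken over a level that was not told apart from background.

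Cldn6, a claudin known from embryonic epithelia, was at 17.1 CPM in WT-annotated and 15.1 CPM in KO-annotated ESCs, and 48h-EpiLCs had 53.2 and 45.5 CPM. The rises were 1.64 (1.32 to 1.97) and 1.59 (1.47 to 1.72) on the log2 scale and differed between the lines by -0.05 (-0.39 to 0.29). That difference was -0.28 (-0.42 to -0.14) with the line taken from the cluster. With WT-annotated cells of at least 2 tdTomato UMIs it was 0.82 (-0.29 to 1.94). In 48h-EpiLCs the KO-annotated level differed from the WT-annotated one by -0.23 (-0.39 to -0.06). The share of cells with a Cldn6 UMI after thinning to 5000 UMIs per cell went from 8.06% and 7.55% to 23.4% and 19.8%. Cldn3, another sealing claudin, was at 12.5 and 7.48 CPM in ESCs, and 48h-EpiLCs had 18.0 and 14.6 CPM. Its stage change was 0.53 (0.09 to 0.96) in WT-annotated cells and 0.97 (0.78 to 1.15) in KO-annotated cells. The KO-annotated minus WT-annotated difference was 0.44 (-0.02 to 0.90), an interval that includes 0. With the line taken from the cluster that difference was 0.15 (-0.05 to 0.35). The interval of the KO-annotated ESC level (6.70 to 8.33) overlapped that of the fibroblast-like cells (4.84 CPM, 3.13 to 7.14). An antisense gene, Wbscr25, overlaps Cldn3 on the other strand, and whether the counting used the strand was not stated.

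Cldn4, which encodes a claudin that seals epithelial sheets, moved in opposite directions in the lines. Its level was 13.3 CPM (10.6 to 16.5) in WT-annotated ESCs and 8.36 CPM (6.24 to 11) in WT-annotated 48h-EpiLCs, from 82 and 52 UMIs. In the KO-annotated cells it was 11 CPM (10.0 to 12.0) in ESCs and 16.6 CPM (15.5 to 17.6) in 48h-EpiLCs, from 484 and 982 UMIs. The ESC classes overlapped, whereas the KO-annotated 48h-EpiLCs stood above the WT-annotated ones. The WT-annotated 48h-EpiLC level lay within the interval of the fibroblast-like cells of the ESC library (6.0 CPM, 4.07 to 8.51). The 48h-EpiLC library had no such cluster to give its own background. The stage change was -0.67 (-1.20 to -0.15) and 0.59 (0.44 to 0.75), a difference of 1.27 (0.74 to 1.79) on the log2 scale. With the line taken from the cluster, and without the marker-list clusters and high doublet scores, the changes were -0.24 and 0.51 and the difference was 0.75 (0.53 to 0.97).

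Cdh1, which encodes E-cadherin, and Epcam were higher in 48h-EpiLCs in both lines. Cdh1 was at 75.9 CPM (69.1 to 83.1) and 69.6 CPM (67.2 to 72.1) in WT-annotated and KO-annotated ESCs, and 48h-EpiLCs had 119 CPM (111 to 128) and 107 CPM (104 to 109), a log2 change of 0.65 (0.48 to 0.82) and 0.61 (0.55 to 0.68). Epcam, which encodes a homophilic adhesion glycoprotein of epithelia and ESCs, was at 277 and 300 CPM in ESCs, and 48h-EpiLCs had 409 and 476 CPM, a change of 0.56 (0.47 to 0.65), or 1.48-fold, and 0.67 (0.64 to 0.69), or 1.59-fold. The changes differed between the lines by -0.03 (-0.21 to 0.14) for Cdh1 and 0.10 (0.01 to 0.20) for Epcam. Without the fibroblast-like, endoderm-like and 2-cell-like clusters the Epcam difference was 0.07 (-0.02 to 0.17). Epcam was the most widely detected of the 10 genes in 48h-EpiLCs, with a UMI in 88.3% and 89.5% of thinned cells against 68.9% and 75.6% of thinned ESCs.

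Cdh3, which encodes P-cadherin, was low throughout, from 2.44 CPM (15 UMIs) in WT-annotated ESCs to 5.03 CPM in KO-annotated 48h-EpiLCs. Its log2 change was 1.03 (0.10 to 2.03) and 0.48 (0.20 to 0.77). After thinning, 0.922% and 1.83% of ESCs held a Cdh3 UMI, which is within the interval of the feeder fibroblast-like cells of that library (1.61%, 0.526% to 3.72%) and was read as background. The 48h-EpiLC shares were 1.63% and 2.90%, and no cluster of that library met the fibroblast list to give a background.

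Jam2, a junctional adhesion molecule of the immunoglobulin superfamily, was nearly lost in 48h-EpiLCs. It was at 58.3 CPM (52.5 to 64.7) in WT-annotated ESCs and 68.9 CPM (66.5 to 71.4) in KO-annotated ESCs, but at 0.482 CPM (0.0995 to 1.41), 3 UMIs in all, in WT-annotated 48h-EpiLCs and at 2.01 CPM (1.66 to 2.40), 119 UMIs, in KO-annotated 48h-EpiLCs. The 2 stages did not overlap in either line. The fall was 121-fold in the WT-annotated and 34.3-fold in the KO-annotated cells, or -6.92 (-9.20 to -5.36) and -5.10 (-5.38 to -4.84) on the log2 scale. The KO-annotated minus WT-annotated difference in that change was 1.82 (0.16 to 3.48). It was 1.63 (1.11 to 2.15) with the line taken from the cluster. A Jam2 UMI was seen in 24.2% and 28.0% of thinned ESCs, in 1.04% (0.711% to 1.48%) of thinned KO-annotated 48h-EpiLCs and in 0 of 367 thinned WT-annotated 48h-EpiLCs, where 3 counts would be a share of 0.817%. The WT-annotated value rests on 3 UMIs. With the line taken from the cluster there were 36 UMIs and 0.616 CPM (0.432 to 0.853), against 2.26 CPM (1.93 to 2.62) in the KO clusters.

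Vim, which encodes the intermediate filament protein vimentin, was at 254 CPM (241 to 267) in WT-annotated ESCs, 288 CPM (283 to 293) in KO-annotated ESCs, 79.7 CPM (72.9 to 87.1) in WT-annotated 48h-EpiLCs and 68.5 CPM (66.5 to 70.7) in KO-annotated 48h-EpiLCs. It fell 3.18-fold and 4.21-fold, or -1.67 (-1.82 to -1.52) and -2.07 (-2.12 to -2.02) on the log2 scale. Fibroblast-like cells carried 5072 of the 12723 Vim UMIs of KO-annotated ESCs (39.9%), but 45 of 1561 (2.88%) of the WT-annotated ESCs, and 1 cell held 213 Vim UMIs. Without the 3 set-aside clusters Vim was at 247 CPM and 175 CPM in the ESC classes, and the stage changes were -1.63 and -1.36 in the order WT-annotated, KO-annotated. The KO-minus-WT difference of the stage change then turned from -0.40 (-0.56 to -0.25) to 0.27 (0.11 to 0.43).

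Cdh2 was low, with 34, 216, 17 and 209 UMIs and 5.52, 4.90, 2.73 and 3.52 CPM in the order WT-annotated ESCs, KO-annotated ESCs, WT-annotated 48h-EpiLCs and KO-annotated 48h-EpiLCs. Fibroblast-like cells carried 84 of the 216 UMIs of the KO-annotated ESCs (38.9%). The stage change was -1.02 (-1.95 to -0.14) in WT-annotated and -0.47 (-0.76 to -0.19) in KO-annotated cells. Without the 3 clusters these were -0.89 (-1.84 to 0.02) and 0.23 (-0.10 to 0.57). The KO-annotated minus WT-annotated difference was 0.54 (-0.34 to 1.42), and 1.12 (0.20 to 2.04) without the clusters. With the line taken from the cluster, and without those clusters and high doublet scores, the changes were in opposite directions, at -0.65 and 0.50. An antisense gene, Gm15485, overlaps Cdh2 on the other strand. A cell that held both Cdh1 and Cdh2 UMIs after thinning was rare, at 0.461% (2 of 434) of WT-annotated ESCs, 0.474% of KO-annotated ESCs, 1.09% of WT-annotated and 0.674% of KO-annotated 48h-EpiLCs. The product of the separate Cdh1 and Cdh2 shares was 0.664%, 0.61%, 0.766% and 0.553% in that order, and the observed shares rest on 2 to 20 cells.

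**Figure D2:**
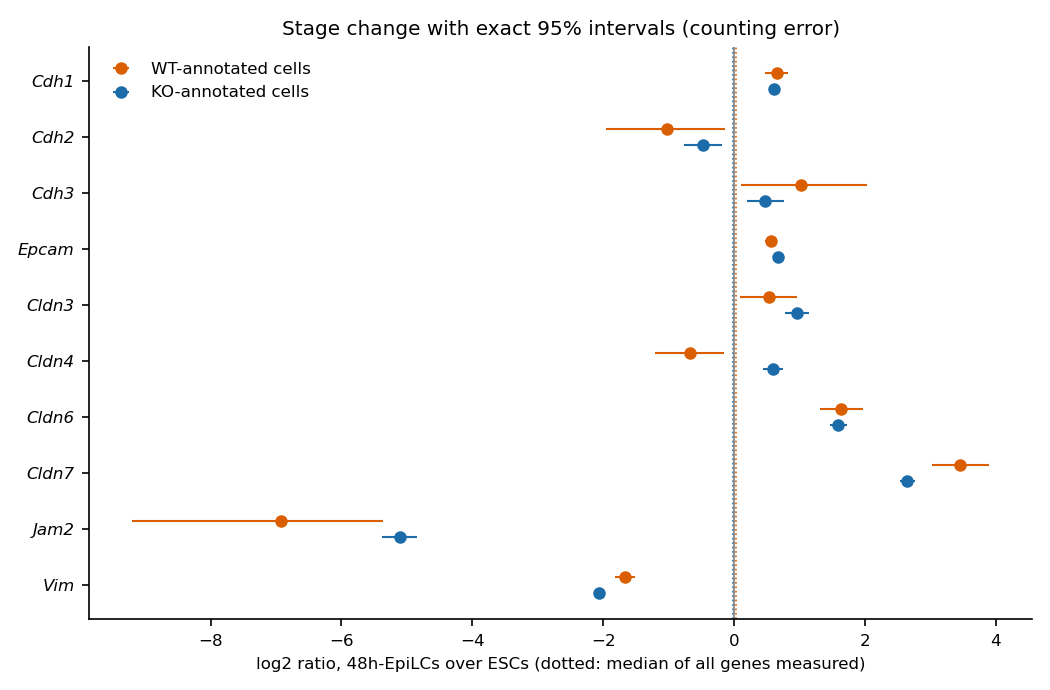
Log2 ratio of 48h-EpiLCs over ESCs for each gene in WT-annotated and KO-annotated cells, with exact 95% intervals (counting error) and the median of all measured genes dotted. Cldn7 and Cldn6 lie farthest to the right, at up to 3.45, Jam2 and Vim to the left, and Cldn4 is the gene whose points lie on both sides of 0.

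Between the lines, few of the 10 genes passed 1.5-fold at either stage. In ESCs 1 of 9 genes was at least 1.5-fold higher in KO-annotated cells (Cldn7), against 13.9% of 9277 genes, and 1 was lower (Cldn3), against 5.61%. In 48h-EpiLCs 1 of 8 was higher (Cldn4), against 9.04% of 9385 genes, and 0 of 8 were lower, against 4.95%. The medians of the genes measured were -0.124 and -0.073, and those of all genes 0.129 and 0.077. With 0 or 1 gene of 8 or 9 in each direction, these counts do not stand apart from the background shares.

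In ESCs Cldn3 was lower in KO-annotated cells by 0.74 on the log2 scale (-0.74, interval -1.10 to -0.36) and Cldn7 was higher by 0.84 (0.42 to 1.29), over a WT-annotated level read above as background. The KO-annotated Cldn3 level was close to that of the fibroblast-like cells, as given above. The Cldn3 difference was -0.71 and the Cldn7 difference 0.80 with the line taken from the cluster and cells cleaned of set-aside clusters and high doublet scores. Vim was higher in KO-annotated ESCs by 0.19 (0.11 to 0.26), and lower by 0.50 (-0.50, -0.58 to -0.42) once the fibroblast-like, endoderm-like and 2-cell-like clusters were left out. The Cdh2 difference in ESCs moved in the same way, from -0.17 (-0.70 to 0.39) to -0.74 (-1.33 to -0.11). In 48h-EpiLCs, where the WT-annotated class held none of these cells and the KO-annotated class 20 2-cell-like cells, Vim was lower in KO-annotated cells by 0.22 (-0.22, -0.35 to -0.08), and by 0.23 (-0.23) without the 2-cell-like cells. Epcam was higher in KO-annotated cells by 0.12 (0.04 to 0.19) in ESCs and 0.22 (0.16 to 0.28) in 48h-EpiLCs, while Cdh1 differed by -0.12 (-0.27 to 0.02) and -0.16 (-0.27 to -0.05). Jam2 in 48h-EpiLCs was 4.16-fold higher in KO-annotated cells (2.06 on the log2 scale, 0.47 to 4.36), but its mean was under 5 CPM.

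**Figure D3:**
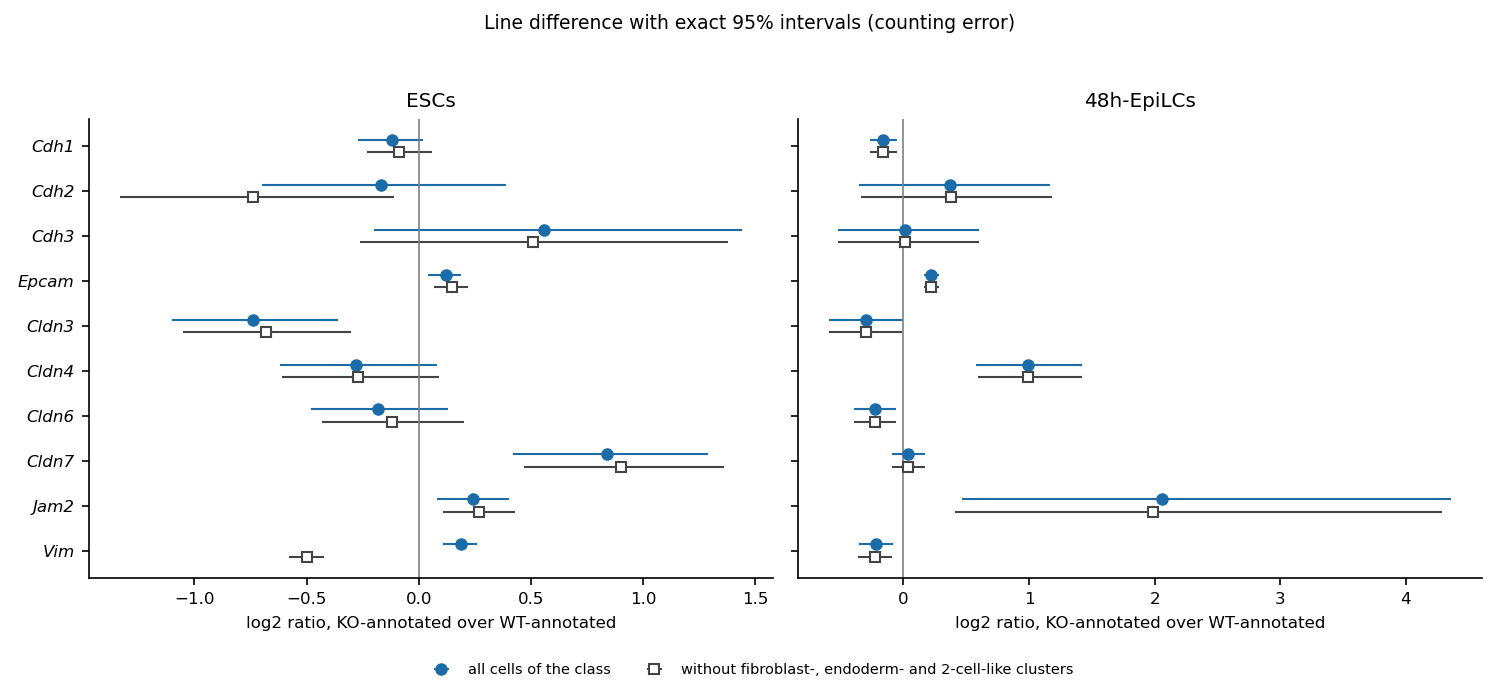
Line difference (KO-annotated over WT-annotated, log2) of each gene in ESCs (left) and 48h-EpiLCs (right), over all cells of the class (filled) and without the fibroblast-like, endoderm-like and 2-cell-like clusters (open), with exact 95% intervals. In ESCs Vim moves from 0.19 to -0.50 when those clusters are left out, whereas in 48h-EpiLCs it stays at -0.22 and -0.23.

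The share of cells with a UMI needed a background, because feeder fibroblast-like cells, which should lack epithelial genes, also held their UMIs. In 410 such cells Epcam was at 118 CPM and Cdh1 at 33.3 CPM, and after thinning 34.5% and 15.2% held a UMI (median 10518 UMIs before thinning, 100 cells left out). Without cells of high doublet score these were 29.3% and 7.34%. Vim was at 3045 CPM in the fibroblast-like cells and Cdh2 at 41.2 CPM, the highest of all clusters for both. Against that background the ESC shares of Epcam, Cdh1 and Cldn4 (7.37% and 5.62% of thinned cells) were higher, as the plot of thinned shares shows. Jam2 was seen in 18.4% (14.2% to 23.2%) of thinned fibroblast-like cells against 24.2% (20.2% to 28.5%) in WT-annotated ESCs, intervals that overlap. The share in KO-annotated ESCs, 28.0% (26.4% to 29.6%), lay above that of the fibroblast-like cells. In CPM both ESC classes lay above them, at 58.3 (52.5 to 64.7) and 68.9 (66.5 to 71.4) against 42.4 (36.9 to 48.4).

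**Figure D4:**
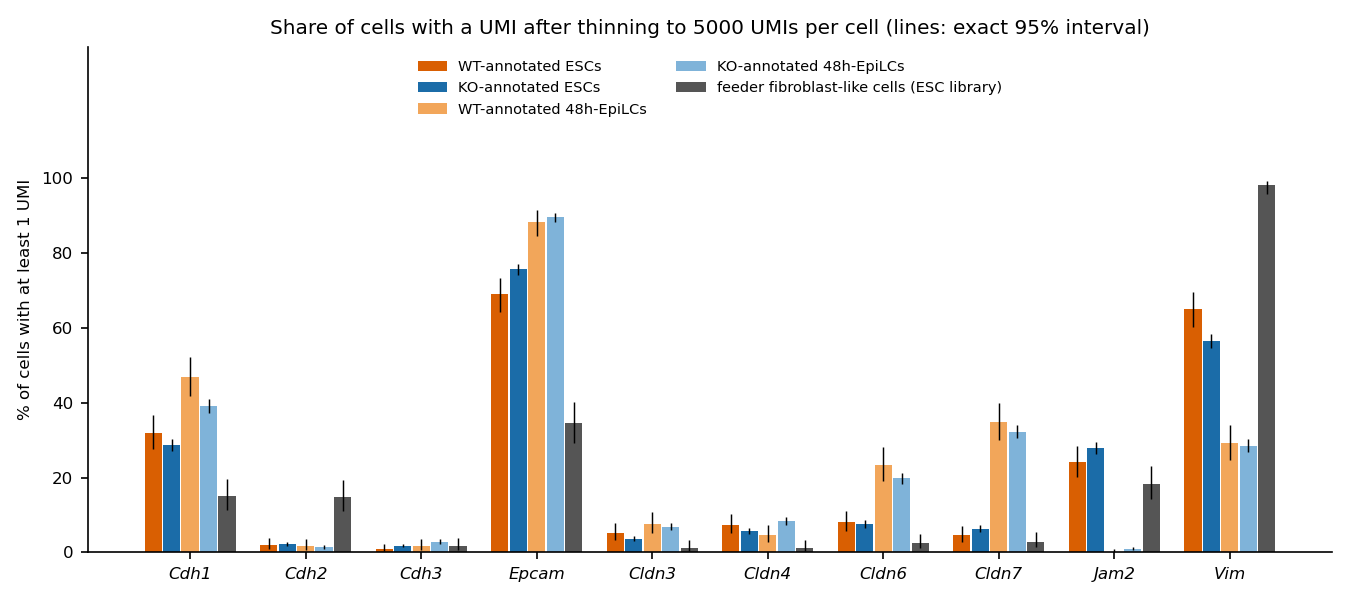
Share of cells with at least 1 UMI of each gene after each cell was thinned to 5000 UMIs, in the 4 classes and in the fibroblast-like cluster of the ESC library, with exact 95% intervals. Epcam stands at 68.9% to 89.5% in the 4 classes and 34.5% in the fibroblast-like cells, and Jam2 falls from 24.2% and 28.0% in ESCs to near 0 in 48h-EpiLCs.

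Clusters of each library, made without these genes, showed where within a stage they varied. Cldn4 was highest in ESC cluster 5, led by Hand1, Rhox6, Rhox9, Krt8 and Krt18, at 25.4 CPM (22.4 to 28.7), and in 48h-EpiLC cluster 6, led by Tinagl1, Rhox6 and H19, at 30.8 CPM (27.6 to 34.3). The other ESC clusters ran from 4.71 to 14.2 CPM. Cldn7 was also highest among ESC clusters in cluster 5, at 30.9 CPM (27.6 to 34.6). Jam2 in 48h-EpiLCs was highest in the 2-cell-like cluster at 15.5 CPM (8.48 to 26.0), followed by cluster 6 at 5.51 CPM (4.20 to 7.11) and cluster 2, led by Lgals3 and Zfp42, at 3.10 CPM (2.48 to 3.82), and lay at 0.303 to 0.519 CPM in clusters 0, 1, 3 and 7. Depth differed among clusters, with median UMIs per cell from 3198 to 21556 in the ESC library and from 3420 to 27241 in the 48h-EpiLC library, and its part in these levels was not tested. Over 18 clusters that met no marker list, the gene whose log2 level followed Jam2 most closely was Tfcp2l1, a naive pluripotency factor (r = 0.909), followed by Vangl1 (0.882). For Cldn4 it was Ostf1 (0.903) and Sdc4 (0.901), for Cdh1 Pole (0.972), for Epcam Btbd9 (0.925), for Cldn3 Rbms1 (0.908), for Cldn7 Hip1 (0.882), for Vim Tmsb4x (0.861), for Cldn6 Fos (0.849), for Cdh3 Sik3 (0.832) and for Cdh2 Haus2 (0.791). Each of these is the highest r among 5542 genes compared. Over all 22 clusters the closest gene was another one for every member except Cdh1, which kept Pole (0.94). For Jam2 it was then Hexim1 (0.807), and Tfcp2l1 was not among the 3 closest. These r values are descriptive: the clusters share libraries and depth. Among the 10 genes, Cldn3 and Cldn6 (0.78), Cdh1 and Epcam (0.69) and Cdh3 and Cldn4 (0.69) were most alike over the 18 clusters, and Epcam and Vim went from -0.79 over all 22 clusters to -0.33 over the 18.

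**Figure D5:**
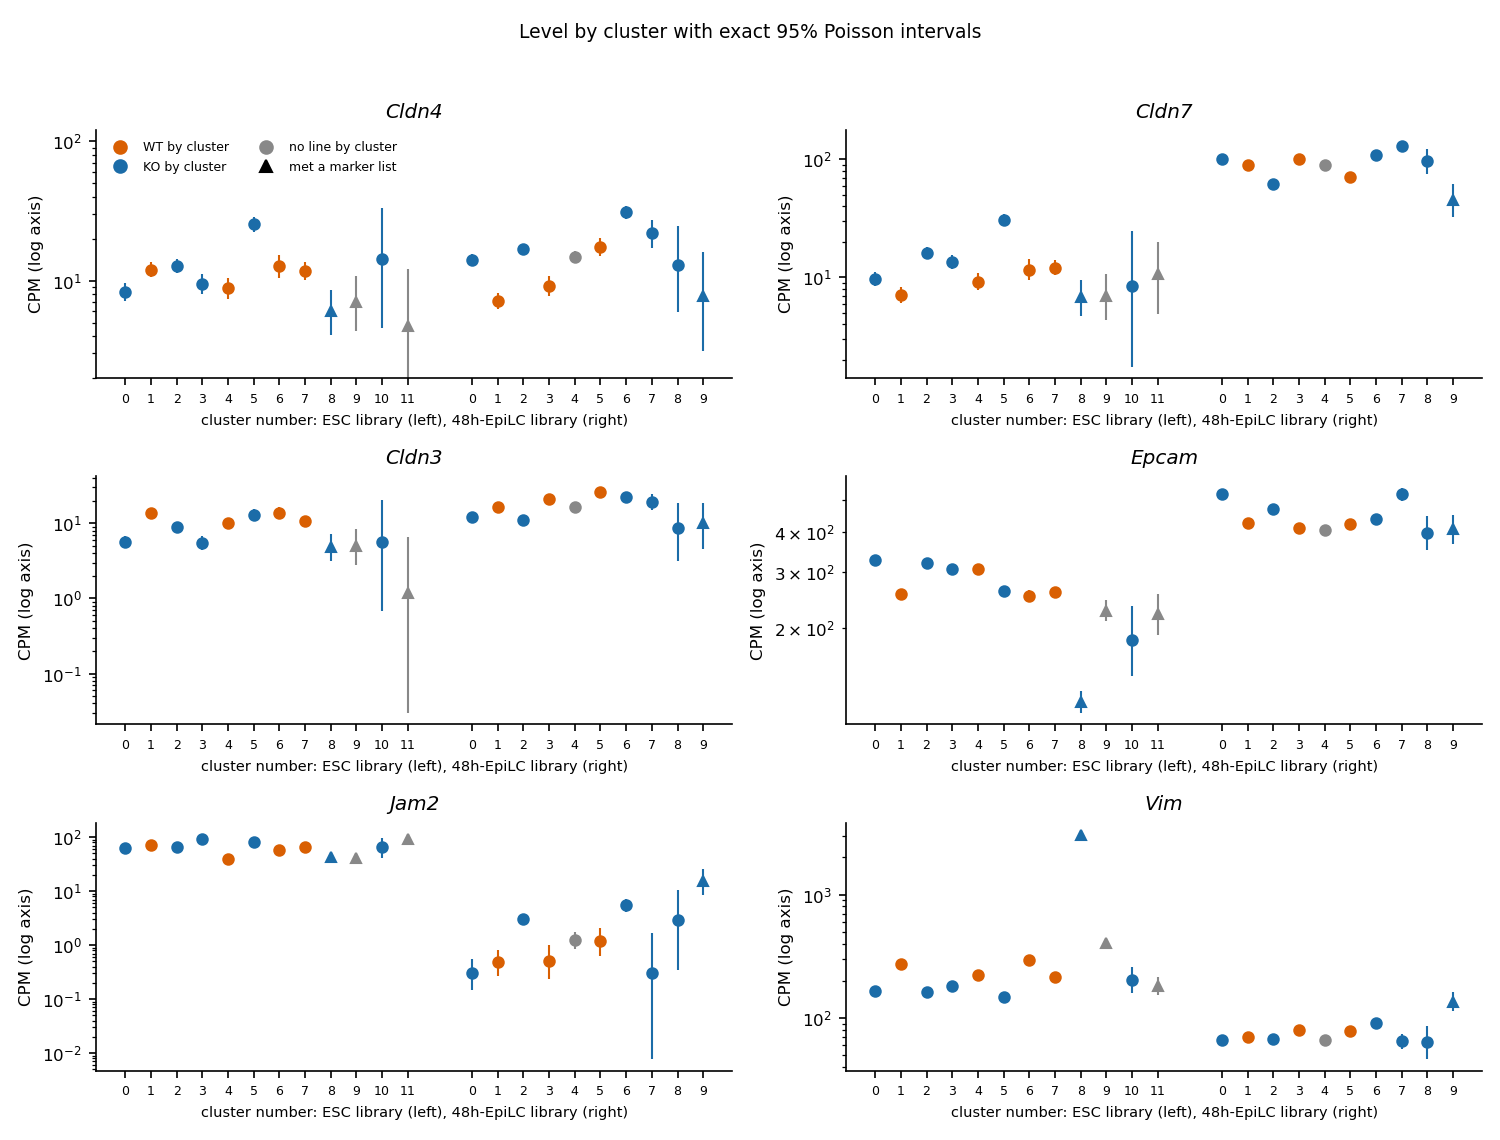
Level of 6 genes in each cluster, in CPM on log axes, with exact 95% Poisson intervals. The ESC library is on the left and the 48h-EpiLC library on the right of each panel, colours give the line by cluster and triangles mark clusters that met a marker list. Cldn4 peaks in ESC cluster 5 and 48h-EpiLC cluster 6, and Vim reaches 3045 CPM in the fibroblast-like cluster.

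Further lists of junction and mesenchymal genes were counted in the same way, against the same background shares of all genes. Of 12 measured catenin and adherens junction plaque genes, 1 was higher and 4 were lower in WT-annotated 48h-EpiLCs, and 0 and 3 in the KO-annotated ones, with median log2 ratios of -0.28 and -0.23. Jup, which encodes plakoglobin, fell by 0.86 and 0.62 on the log2 scale, from 47.8 and 60.8 CPM to 26.4 and 39.5 CPM. Of 15 measured tight junction genes 2 were higher and 0 lower in the WT-annotated cells, and 1 and 0 of 13 in the KO-annotated ones, with medians of 0.29 and 0.09. Crb3, a polarity protein gene, changed by 1.5 (1.09 to 1.93) and 1.47 (1.33 to 1.62). Of 8 measured intermediate filament genes 3 were higher and 1 lower in the WT-annotated and 2 and 3 in the KO-annotated cells, with medians of 0.40 and -0.03. Krt18, a keratin of simple epithelia, went from 6.50 and 18.9 CPM to 73.8 and 77.6 CPM (3.51 and 2.04). Lmna, a nuclear lamin gene, fell by 1.37 and 2.07, and stood higher in KO-annotated cells at both stages (1.60 and 0.90). Of 8 measured mesenchymal matrix and adhesion genes 1 was higher and 4 lower in the WT-annotated cells (median -0.43). In the KO-annotated cells 0 of 9 were higher and 6 lower (median -1.20). Without the marker-list clusters, 0 were higher and 4 lower of 7 in the WT-annotated cells, with a median of -0.79. In the KO-annotated cells 1 was then higher and 2 were lower of 6, with a median of -0.19. Fn1 and Sparc, matrix genes, changed by -1.57 and -1.20 and by -0.98 and -0.61, and by -0.97 and -0.36 in KO-annotated cells without those clusters. Of 9 measured epithelial and mesenchymal regulators 1 was higher and 2 lower in WT-annotated and 0 and 2 in KO-annotated cells, with medians of -0.28 and -0.29. Without the marker-list clusters 1 was higher and 2 lower of 9 in WT-annotated cells (median -0.29). In KO-annotated cells 0 were then higher and 1 lower of 9 (median -0.19). Of the Snail and Zeb repressors, which bind the E-box shown above, Zeb1 was at 13.5, 14.6, 3.22 and 3.44 CPM in the order of the classes above. Zeb2 was at 1.62, 2.65, 1.13 and 0.573 CPM. Snai1 was at 1.62, 4.17, 2.25 and 1.72 CPM, Snai2 at 0.975, 1.54, 0.322 and 0.337 CPM and Snai3 at 12.7, 6.51, 7.4 and 5.31 CPM. The Snail and Zeb levels of the ESC classes include the fibroblast-like cells, and their part in them is not given. These genes were named for their E-box, with their values known. Whether they act on the genes with that E-box was not tested. Of the other cadherins 1 of 2 measured was higher in WT-annotated and 3 of 4 in KO-annotated cells, of 5 desmosome genes 2 were higher and 1 lower against 0 and 2, and of 8 junction proteases and endocytosis genes 2 were higher in each line. The medians were 1.40 and 1.12 for the cadherins, 0.08 and -0.40 for the desmosome genes and 0.23 and -0.07 for the proteases. Between the lines, KO-annotated ESCs had higher levels of 5 of 8 intermediate filament genes and 4 of 10 mesenchymal matrix genes, and the latter count was 1 of 8, with 1 lower, without the marker-list clusters. In the other lists 0 to 2 genes passed in either direction in ESCs, and 0 or 1 in each list in 48h-EpiLCs.

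By position, the genes fall on 7 chromosomes, with all coordinates on GRCm38. Cdh3 (chr8:106510891-106557297) and Cdh1 (chr8:106603351-106670246) are neighbours on the plus strand, 46053 bases apart, and Cldn4 (chr5:134945119-134946934) and Cldn3 (chr5:134986214-134987472) lie 39279 bases apart on opposite strands. In WT-annotated cells the stage change was 0.53 for Cldn3 and -0.67 for Cldn4, and in KO-annotated cells 0.97 and 0.59. All 10 are annotated as protein-coding.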

How the data were processed

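Per the labels and the study's methods, the authors processed 10x scRNA-seq reads with Cell Ranger 3.0.2 at default settings against mm10 with the tdTomato coding sequence added, and analysed them in Seurat 4. The deposited values are raw UMI counts per gene and cell barcode. Strand use in counting was not given in the sources used here.

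The counts were filtered at 1000 detected genes and 10% mitochondrial UMIs, and cells were assigned to a line by tdTomato and Y-linked UMIs. UMIs were summed per class and given as CPM with exact Poisson intervals. Ratios carry exact conditional binomial intervals, and shares Clopper-Pearson intervals, at 95%. UMIs per class set the precision, and intervals cover counting error only. Genes with a mean of at least 5 CPM in the 2 classes compared were counted as changed at 1.5-fold. For shares, each cell was thinned to 5000 UMIs. Clusters were made per library with scanpy 1.11.5 without the 10 genes (2000 variable genes, 30 components, 15 neighbours, resolution 1.0), and named from at least 3 fixed markers. Doublets were scored against simulated pairs and kept, with an alternative without the top 10%. TMM factors came from edgeR 4.0.16, without its test. Ratios were checked on simulated counts. Positions were from GENCODE M21 (GRCm38), and 99.8% of features matched.

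The members and lists were chosen with earlier results of these data known. All 10 genes are named in every class. Genes of other lists are named when past 1.5-fold in both lines or both stages with at least 20 CPM, up to 4 per list. The Snail and Zeb genes were named outside this rule. The 3 genes most correlated with a member were taken for likeness, of which the text gives 1 or 2. With 1 library per stage, samples were not compared by any test. In all, 14 alternatives were run.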

Additional observations from a re-analysis of the deposited data

Results flagged for a closer look

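The stage change of Cldn4 differed between the lines. It was -0.67 (-1.20 to -0.15) in WT-annotated and 0.59 (0.44 to 0.75) in KO-annotated cells, a KO-annotated minus WT-annotated difference of 1.27 (0.74 to 1.79) on the log2 scale. It is listed because the lines moved in opposite directions. The difference was not tested, since each stage has 1 library. It rests on 52 UMIs in the WT-annotated 48h-EpiLCs, at 8.36 CPM. That level lay within the interval of the fibroblast-like cells of the ESC library (4.07 to 8.51 CPM), and the 48h-EpiLC library gave no background of its own. With WT-annotated cells of at least 2 tdTomato UMIs, 33 ESCs and 24 48h-EpiLCs, the difference was 0.78 (-0.76 to 2.32).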

How the results depend on the processing

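With the line taken from the cluster, 5 genes were higher in WT 48h-EpiLCs than in WT ESCs in place of 3, and 5 also when set-aside clusters and high doublet scores were left out, an alternative chosen after seeing the data. In that alternative 2 genes in place of 1 were lower in KO ESCs. With WT-annotated cells of at least 2 tdTomato UMIs, the line comparison gave 0 genes higher in KO-annotated cells at 0 h and 0 at 48 h, in place of 1 each. At a mean of at least 20 CPM, 0 were higher and 0 lower in KO-annotated ESCs and 0 higher in 48h-EpiLCs, because fewer genes were counted. With no filter 2 were higher in KO-annotated 48h-EpiLCs. The shares of all genes past 1.5-fold are not given for these settings, so these counts are not read against a background. The other 103 counts stayed within 1.5 times, but not always with the same genes. The fall of Cldn4 in WT-annotated cells was under 1.5-fold with at most 5% mitochondrial UMIs (-0.36), with at least 2 tdTomato UMIs (-0.19), and with the line from the cluster (-0.25, and -0.24 in the added alternative). Its rise in KO-annotated cells (0.59) was under 1.5-fold in 5 alternatives, at 0.51 to 0.55, and that of Cdh1 (0.61) in 2, at 0.55 and 0.57. With at least 2 tdTomato UMIs the Cldn7 difference in ESCs was 0.58 and the Cldn4 difference in 48h-EpiLCs 0.30.

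The sign changed in 21 single values, of which 9 had a reported interval that excluded 0 and 12 one that included it. Without the fibroblast-like, endoderm-like and 2-cell-like clusters, the stage change of Cdh2 in KO-annotated cells was 0.23 and the ESC line difference of Vim -0.50, and in the added alternative they were 0.50 and -0.66. With at least 2 tdTomato UMIs, the line differences in 48h-EpiLCs were 0.08 for Cdh1, -0.02 for Epcam, 0.12 for Cldn3, 0.35 for Cldn6 and 0.03 for Vim, from 24 WT-annotated cells. The other 12 were line differences: in ESCs Cldn4 (-0.28) was 0.10 with the line from the cluster and 0.18 in the added alternative, Cdh2 (-0.17) was 0.25 without high doublet scores, 0.40 with the line from the cluster and 1.36 with at least 2 tdTomato UMIs, and Cdh1 (-0.12) was 0.38 with at least 2 tdTomato UMIs. In 48h-EpiLCs Cdh3 (0.01) and Cldn7 (0.04) went to between -0.04 and -0.01 in 3 alternatives each. The cause was not tested. Besides the first 9, 430 single values stayed within the reported interval and 35 lay outside it, and 6 could not be given because a class held 0 UMIs. No paired analysis was possible because each stage has 1 library, and for the same reason no replicate could be left out.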

Other observations

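Cdh1 was among the highest, within each library, in the cluster led by Adm, Ndufa4l2 and Ddit4, genes known to respond to low oxygen. It was at 86.7 CPM (80.6 to 93.2) in ESC cluster 6, where the next was cluster 4 at 81.9 CPM (77.5 to 86.5), and at 137 CPM (131 to 142) in 48h-EpiLC cluster 3, where the next was cluster 7 at 134 CPM (122 to 147). The intervals overlap in both libraries. ESC clusters 6 and 4 and 48h-EpiLC cluster 3 were WT by cluster, whereas 48h-EpiLC cluster 7 was KO. With the line taken from the cluster, Cdh1 was at 74.9 CPM in WT and 67.6 CPM in KO ESCs. In 48h-EpiLCs it was then at 119 and 107 CPM. The part of the line in these cluster levels was not tested. Cldn7 was highest in 48h-EpiLC cluster 7, led by Acta2, Actc1 and Tagln, at 129 CPM (117 to 142), where Cldn4 was at 21.8 CPM.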
